A study of Mus musculus with 40 samples.

Results

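The cytochrome P450 genes of mouse kidney were followed through ischaemia-reperfusion injury, treatment with mesenchymal stromal cells and sham surgery. Members were all gene names made of Cyp, a family number, subfamily letters and a gene number. The rule found 95 members among 55862, 55866 and 55866 names in the temporal, therapy and sham tables. Of these, 5 are genes of adrenal steroid synthesis (Cyp11a1, Cyp11b1, Cyp11b2, Cyp17a1 and Cyp21a1) and were set apart, which left 90. Another 47 names starting with Cyp, such as pseudogenes, Cyp51 and Cyp4a12a, did not match the rule, and 0 members were skipped for differing Control counts between tables. Cyp19a1, Cyp2c39, Cyp2w1 and Cyp3a16 had no count in any library.

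The labels give C57bl/6-wt mice throughout, and each of the 10 groups had 4 kidney RNA-seq libraries. In the temporal table, kidneys taken 6, 24, 48 and 72 h after reperfusion (ischaemia-reperfusion injury, IRI) were set against Control kidneys, for which the labels give no treatment. The therapy table held AKI kidneys (IRI, labelled 6 h after reperfusion), BM-MSC and UC-MSC kidneys (IRI with mesenchymal stromal cells from human bone marrow or human umbilical cord, at a time the labels do not give) and the same 4 Control libraries. The sham table held kidneys 24 h after surgery without IRI and a control group of its own without surgery. The labels of the sham 24 h libraries conflict: their source name gives surgery without IRI, while their treatment field gives IRI. They were taken as sham, by source name and title, and every sham value below rests on that reading. Age and sex are not in the labels, and in every library Xist was at most 1.2 CPM while Y-linked Ddx3y was at least 26.5 CPM. Nothing in the labels says whether the 4 libraries of a group came from separate animals, so the tests measure the spread between libraries.

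P450 enzymes are haem proteins that insert oxygen into lipids, sterols, vitamins and foreign compounds. Those in the endoplasmic reticulum take electrons from the reductase Por and cytochrome b5, and those in mitochondria from ferredoxin. In the kidney they are concentrated in the proximal tubule, where they activate and degrade vitamin D, make arachidonic acid metabolites that act on vessels and salt transport, and oxidise drugs and steroids. Several mouse members, among them Cyp4b1, Cyp7b1 and Cyp2d9, are known for higher levels in males.

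Total counts were 4640921 to 17533712 per library in the temporal table, 12949029 to 18475869 in the therapy table and 26601247 to 37097091 in the sham table, with the 72 h libraries shallowest. Levels below are CPM, counts relative to library size after TMM scaling, and a gene was called at an edgeR adjusted p under 0.05 over all genes tested in its table. In the 48 and 72 h libraries, 11 and 9 of 360 values of the 90 members lay between 1 and 9 counts, against 57 of 360 in Control, so a low member tended to be at 0 or at 10 counts or more. The way repeated lines were joined showed that the 24, 48 and 72 h columns came from another count block than Control and 6 h, and AKI from another than BM-MSC, UC-MSC and Control. Block and group cannot be told apart in the comparisons that cross them. Libraries that stood apart in their members' values were AKI 1, IRI 6 h 1 and UC-MSC 4. Some results that rest on them are also given without them, and the others hold with these libraries included. The AKI libraries carry the library names of the IRI 6 h libraries in the labels. Among 13840 names with at least 100 counts over the 6 h libraries, 11 had the same count in all 4 AKI libraries as in the same-numbered IRI 6 h library, among them the tubule markers Lrp2 and Slc27a2, and Slc5a2 did so in 3. For Fkbp1a and Umod the AKI counts were the last digits of the IRI 6 h counts. No P450 member was among these 14 names, and the counts of members called in the therapy table were the same with the 14 left out. The AKI values of the 14 are not used below as measurements of AKI. Tubule markers were lower beside the members. The summed level of 6 markers of proximal tubule segments S1 and S2 was 8808 to 11221 CPM in Control and 1753 to 5489 CPM at 6 h. IRI 6 h library 1 held the low end at 1753 CPM, and libraries 2 to 4 had 4785, 5489 and 5156 CPM. The S1 and S2 sum was 1013 to 1877 at 24 h and 267 to 377 at 72 h. Markers of proximal tubule segment S3 summed to 8970.1 to 10909 CPM in Control and 1410.2 to 2744 CPM at 6 h. They summed to 828 to 1490.1 at 24 h and 872 to 942 CPM at 72 h. Thick ascending limb markers summed to 238 to 460.0 CPM at 24 h, against 4598 to 5086 CPM in Control. Macrophage markers summed to 123 to 148 against 138 to 146 CPM in the same groups. Neutrophil markers summed to 16.6 to 45.7 against 1.62 to 3.63 CPM and liver markers to 88.1 to 214 against 16.4 to 22 CPM. At 6 h, neutrophil markers summed to 430 CPM in library 1 and to 45.9, 50.5 and 41.2 CPM in libraries 2 to 4. The liver list did not move together. Before scaling, Fgb had 1374, 633, 2724 and 1725 counts at 24 h, against 65, 28, 24 and 40 in Control. Alb had 21, 27, 84 and 49 counts, against 134, 129, 140 and 128. Serpina1c had 0, 0, 1 and 0 counts, against 44, 20, 18 and 14, and the 24 h libraries were shallower than Control. In the macrophage list, Cd68 had 237, 240, 489 and 338 counts at 24 h, against 65, 62, 59 and 56 in Control. Csf1r had 160, 158, 352 and 222 counts, against 1275, 1462, 1402 and 1263. The flat macrophage sum thus held opposite moves. The part of the cell types listed here in the members' changes was not tested. In bulk kidney, fewer tubule cells and less RNA per cell cannot be told apart.

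In Control kidneys, per kilobase of exon (lengths from GENCODE vM21, found for 94 members), the most abundant member was Cyp4b1, an enzyme of the CYP4 family that oxidises fatty acids and aromatic foreign compounds, at 1846 ± 128 CPM per kb (SD, n = 4). Cyp2e1, which oxidises ethanol and other small molecules, followed at 1351 ± 107, and Cyp2j5, a renal arachidonic acid epoxygenase, at 714 ± 28.3 CPM per kb. Then came Cyp2a4 at 299.9 ± 10.7, Cyp2d9 at 224 ± 17.2 and Cyp7b1 at 177 ± 15 CPM per kb. The library ranges of these 6 genes did not overlap, whereas those of the next, Cyp2j11, Cyp4a31 and Cyp4a10, did. Cyp4b1, Cyp2e1 and Cyp2j5 together held 68.2% to 69.7% of the members' summed CPM in Control.

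The members' summed level was lower after IRI. It was 10587 to 11848 CPM in Control and 3606 to 4951 CPM at 6 h. It was 1266 to 2599.8 at 24 h, 1004 to 1170.4 at 48 h and 954 to 1045 CPM at 72 h. The ranges of Control, 6 h, 24 h and 48 h libraries did not overlap, while those of 48 and 72 h did. Cyp4b1, Cyp2e1 and Cyp2j5 held 23.9% to 36.2% of the sum at 72 h.

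Of the 90 members, 41 passed the filter on low counts in the temporal table. At 6 h, 6 were called higher and 13 lower than in Control, a share of 46.3%. The background over all genes was 10.4% higher and 8.51% lower, or 18.9% in either direction. At 24 h, 6 were higher and 20 lower (63.4%). Of all genes, 21.8% were higher and 20.2% lower (42% together). At 48 h, 8 were higher and 24 lower (78.0%). Over all genes tested, 26.9% were higher and 26.8% lower, 53.7% in all. At 72 h, 10 were higher and 23 lower (80.5%). The background over all genes was 26.7% higher and 29.6% lower, or 56.3% in either direction. Their median log2 fold change was -0.31, -0.92, -1.92 and -1.60 at these times, against -0.07, 0.05, 0.01 and -0.04 over all genes tested. Of the 95 members, 14 had no count in any temporal library and 28 had fewer than 10 counts over all 20 libraries together. With only the 2 groups compared in the fit, the 6 h count was 29 members, 13 higher and 16 lower. That fit also called more of all genes, 7443 of 15504, against 3141 of 16653 with all groups fitted.

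**Figure D1:**
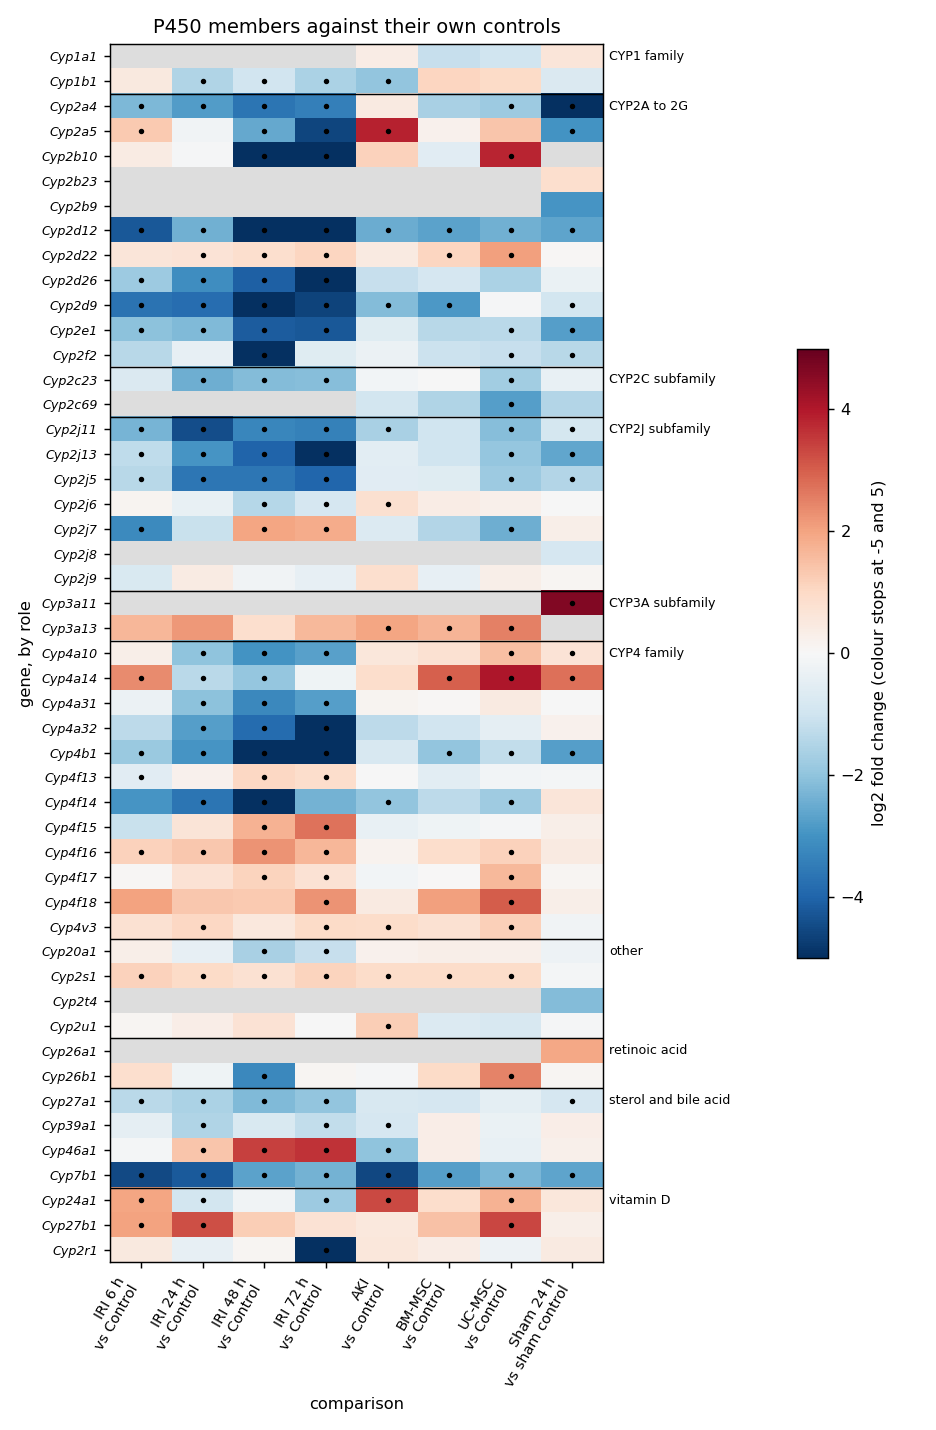
Log2 fold change of each tested member, without the adrenal genes, in each group against its own control (columns), ordered by role (rows). Blue is lower and red higher than in the control, grey was not tested, and a black dot marks an edgeR adjusted p under 0.05. The CYP2A to 2G and CYP2J rows are mostly blue with dots after IRI, and Cyp2s1 is red with a dot in the 7 comparisons with Control but not after sham surgery.

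Among the 21 CYP2A to 2G members, which mostly oxidise drugs and steroids, 9 were tested, and 1 was higher and 5 lower at 6 h, 1 higher and 5 lower at 24 h, 1 higher and 8 lower at 48 h, and 1 higher and 7 lower at 72 h. The abundant Cyp4b1, of the CYP4 family, fell with them. Cyp4b1 stood at 3244, 3585, 3787 and 3353 CPM in Control and 872, 1032, 958 and 1012 CPM at 6 h. It had 563, 231, 522 and 499 at 24 h, 182, 86.1, 72.6 and 88.7 at 48 h and 66.6, 98.7, 68.9 and 47.6 CPM at 72 h. All injured libraries lay below all Control libraries, by a log2 fold change of -1.85 ± 0.27 (SE, edgeR adjusted p = 2.48e-05) at 6 h and -5.63 ± 0.32 (SE, edgeR adjusted p = 2.02e-12) at 72 h. Cyp2e1 had 387, 535, 753 and 690.5 CPM at 6 h and 134, 139, 86.1 and 169.5 CPM at 72 h, against 2327, 2549.7, 2732 and 2326 CPM in Control. The groups did not overlap. Its log2 fold change was -2.07 ± 0.33 (SE, edgeR adjusted p = 8.14e-05) at 6 h and -4.23 ± 0.37 (SE, edgeR adjusted p = 1.63e-09) at 72 h.

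Cyp2d9, a steroid 16-alpha-hydroxylase, had 49.4, 25.8, 16.6 and 27.6 CPM at 6 h and 0, 10.9, 11.5 and 14.9 CPM at 48 h, against 395, 341, 392 and 407 CPM in Control. Every injured library was below every Control library, and the log2 fold change was -3.69 ± 0.54 (SE, edgeR adjusted p = 2.81e-05) at 6 h and -5.37 ± 0.60 (SE, edgeR adjusted p = 9.37e-08) at 48 h. Its close relative Cyp2d12 had 6.53, 4.84, 4.02 and 7.26 CPM at 6 h, against 98.9, 109, 114 and 108 CPM in Control, with no overlap. The log2 fold change was -4.24 ± 0.62 (SE, edgeR adjusted p = 2.91e-05). At 24 h Cyp2d12 stood higher than at 6 h, at 28.5, 9.21, 22 and 22.5 CPM, and at 48 h it was at 0, 0, 3.43 and 5.04 CPM. Cyp2d26 was at 17.6, 57.6, 54.4 and 57.4 CPM at 6 h and 3.72, 0, 2.6 and 0 CPM at 72 h, against 153, 158, 179 and 168 CPM in Control. Its 6 h value was lowest in library 1, and its log2 fold change was -1.81 ± 0.47 (SE, edgeR adjusted p = 0.00806) at 6 h and -6.68 ± 0.66 (SE, edgeR adjusted p = 1.36e-08) at 72 h. Cyp2d22 went the other way: it was called higher at 24 h (log2 fold change 0.70 ± 0.23 SE, edgeR adjusted p = 0.0159), at 48 h (log2 fold change 0.84 ± 0.23 SE, edgeR adjusted p = 0.00361) and at 72 h (log2 fold change 1.06 ± 0.23 SE, edgeR adjusted p = 0.000457). Its 72 h libraries had 37.4, 47.6, 53.5 and 31.8 CPM, against 20.4, 19.6, 21.5 and 20.3 CPM in Control. Its 24 h call was lost without IRI 24 h libraries 1, 3 or 4 (edgeR adjusted p 0.0567 to 0.0733) and, in edgeR, without the filter on low counts, at 0.65 (adjusted p = 0.0565). In the RefSeq gene order of GRCm38.p6, Cyp2d22 and Cyp2d9 stand in 1 run with Cyp2d11 and Cyp2d10, so genes of 1 run moved in opposite directions.

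Cyp2b10, which is known in liver as a target of the receptor CAR, had 0 counts in all 48 and 72 h libraries, against 1.34, 1.97, 1.31 and 0.699 CPM in Control. With a floor of 3 counts over the group, it was at least 11.2-fold lower at 48 h and at least 8.29-fold lower at 72 h. Cyp2f2, a lung enzyme that activates naphthalene, was at 0 in the 48 h libraries, against 2.48, 2.89, 2.84 and 4.4 CPM in Control, at least 26.4-fold lower. At 72 h it was at 5.91, 2.26, 0 and 0 CPM, with 1 library above the Control range, 1 just below it and 2 at 0, and was not called against Control (edgeR adjusted p = 0.633). Against 48 h it was called higher (edgeR adjusted p = 0.0263), a call lost without IRI 72 h library 1 (edgeR adjusted p = 0.0543). The bounds on these folds cover counting error only and rest on libraries in which counts from 1 to 9 were rare.

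**Figure D2:**
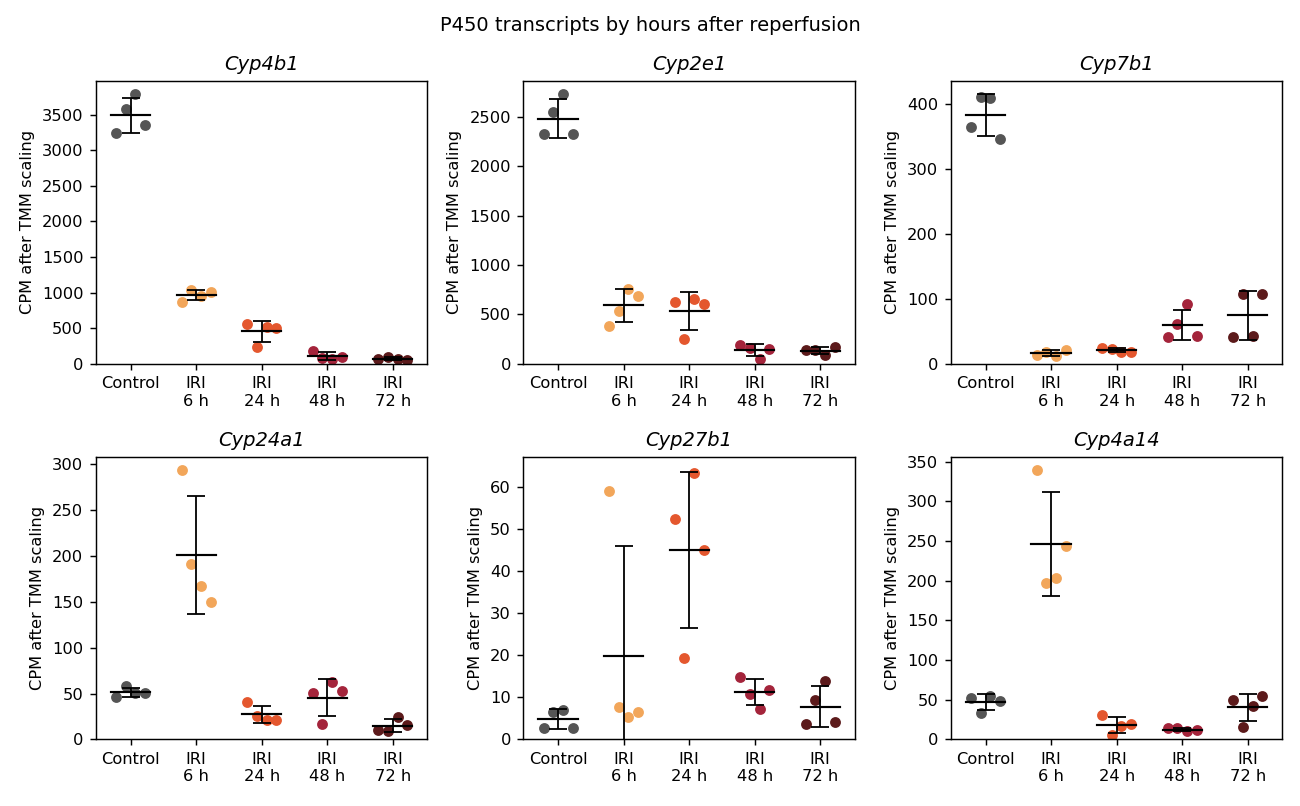
CPM after TMM scaling (vertical axes, linear from 0) of 6 members in the 4 libraries of Control and of each time after reperfusion (horizontal axes). Points are libraries, lines are means and bars are SDs, cut off at 0. Cyp4b1, Cyp2e1 and Cyp7b1 lie below Control in all injured libraries, Cyp24a1 and Cyp4a14 are highest at 6 h, and Cyp27b1 is highest at 24 h with 1 high library at 6 h.

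Cyp2a5 and Cyp2a4 are near-identical genes on chromosome 7. Cyp2a5 is the mouse coumarin 7-hydroxylase and Cyp2a4 a testosterone 15-alpha-hydroxylase. In the longest open reading frames of GENCODE vM21, 1462 bases were identical, 23 differed and 57 were in gaps, so reads could be split between them in the authors' counting and the values of both are uncertain. The 250 bases before their start sites (RefSeq, GRCm38.p6, plus strand, chr7:26835089-26835338 and chr7:26306942-26307191) were 97.6% identical over 251 aligned positions, with 4 mismatches and 2 gaps. They are shown because the ratio of the 2 genes shifted after IRI and after sham surgery while these windows differ at so few positions. Capitals mark the TATA motif TATAAA, starting 29 and 28 bases before the start site.
Cyp2a5: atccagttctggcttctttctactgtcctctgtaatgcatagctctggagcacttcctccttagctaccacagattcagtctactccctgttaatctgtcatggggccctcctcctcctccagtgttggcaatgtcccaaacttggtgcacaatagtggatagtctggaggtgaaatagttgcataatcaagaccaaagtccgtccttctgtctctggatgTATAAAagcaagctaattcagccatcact
Cyp2a4: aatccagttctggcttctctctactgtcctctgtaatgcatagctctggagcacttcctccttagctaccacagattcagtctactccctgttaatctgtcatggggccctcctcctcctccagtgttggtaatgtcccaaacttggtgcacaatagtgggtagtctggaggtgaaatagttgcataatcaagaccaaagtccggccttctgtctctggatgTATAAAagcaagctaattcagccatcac
TATAAA was found on either strand in 33.7% of 83 windows of the 73 members with an entry and in 12.4% of all 32851 promoter windows of this length. A match describes the letters only.

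At 6 h Cyp2a4 had 42.9, 150.0, 105 and 140.3 CPM, against 526, 536, 529 and 494 CPM in Control, all below (log2 fold change -2.25 ± 0.31 SE, edgeR adjusted p = 1.47e-05). Cyp2a5 had 253, 485, 493 and 482 CPM at 6 h, against 182, 179.6, 144 and 179.8 CPM in Control, all above (log2 fold change 1.32 ± 0.37 SE, edgeR adjusted p = 0.0142). The Cyp2a5 call was lost without Control library 3 (edgeR adjusted p = 0.0510). The counts of Cyp2a5 over those of Cyp2a4 were 0.272 to 0.364 in Control, 3.23 to 5.88 in the 6 h libraries, 1.69 to 2.35 at 24 h, 0.195 to 1.13 at 48 h and 0.0591 to 0.239 at 72 h. At 72 h, Cyp2a5 was at 4.82, 7.59, 13 and 2.83 CPM (log2 fold change -4.58 ± 0.46 SE, edgeR adjusted p = 1.53e-08) and Cyp2a4 at 42.3, 50.5, 54.5 and 47.8 CPM (log2 fold change -3.42 ± 0.33 SE, edgeR adjusted p = 9.33e-09). Both were thus lower than Control by then, with Cyp2a5 the lower of the pair.

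**Figure D3:**
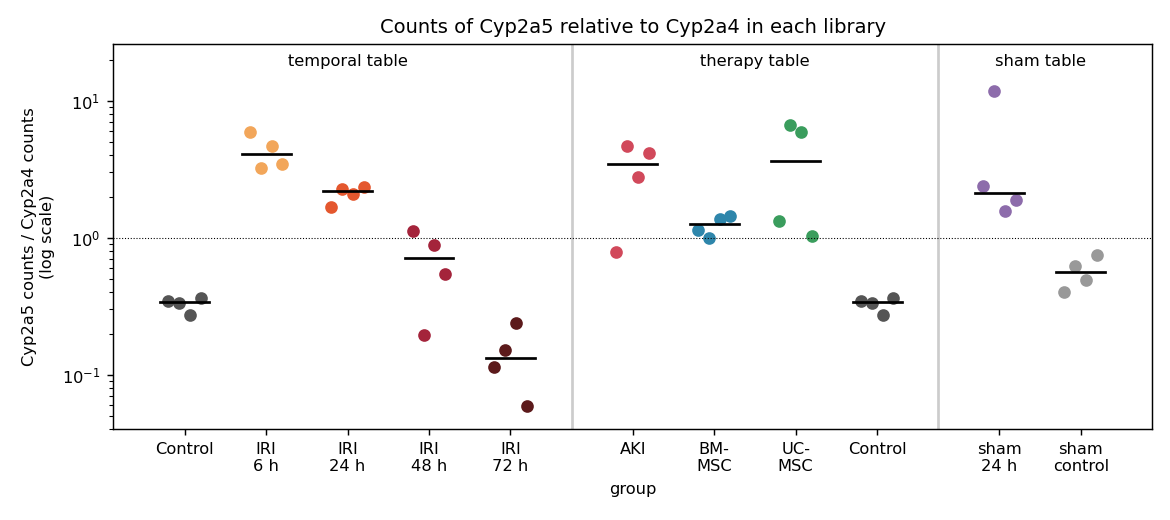
Counts of Cyp2a5 divided by counts of Cyp2a4 in each library (vertical axis, log scale) by group (horizontal axis) in the 3 tables, with lines at the medians. All 6 h, 24 h and sham 24 h libraries lie above 1, and all Control and sham control libraries lie below it. In the AKI and sham 24 h groups, 1 library each stands away from the other 3.

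The CYP2J and CYP2C enzymes include the epoxygenases that turn arachidonic acid into epoxyeicosatrienoic acids, which widen vessels. Of 6 CYP2J members tested, 4 were lower at 6 h and 3 at 24 h, and 4 were lower and 1 higher at both 48 and 72 h. The member called higher was Cyp2j7, with 3.44, 2.21, 4.75 and 6.95 CPM at 48 h, against 0.828, 0.634, 1.87 and 1.05 CPM in Control (log2 fold change 1.98 ± 0.74 SE, edgeR adjusted p = 0.0277), and this call was lost without Control libraries 1, 2 or 4 or IRI 48 h library 4 (edgeR adjusted p 0.0714 to 0.0916) and, in edgeR, without the filter, at 1.87 (adjusted p = 0.120). At 72 h the log2 fold change of Cyp2j7 was 1.86 ± 0.74 (SE, edgeR adjusted p = 0.0365), a call lost without the filter, at 1.75 (adjusted p = 0.152) in edgeR. Cyp2j7 was also among the 4 members called lower at 6 h (log2 fold change -3.17 ± 0.82 SE, edgeR adjusted p = 0.00721). It had 0, 1, 3 and 3 counts there, against 13, 9, 27 and 15 in Control. Cyp2j5 had 1653, 1737, 1719 and 1592 CPM in Control and 187, 703, 836 and 849 CPM at 6 h. It had 179, 95.5, 135 and 133 at 24 h and 108, 129.9, 94.7 and 94.4 CPM at 72 h. Library 1 was the lowest at 6 h, and no injured library reached Control. The log2 fold change was -1.38 ± 0.29 (SE, edgeR adjusted p = 0.00117) at 6 h and -3.63 ± 0.31 (SE, edgeR adjusted p = 3.74e-09) at 24 h. Cyp2j11 was lowest at 24 h, at 11.7, 6.01, 16 and 15.6 CPM, and had 36.3, 16.6, 34.3 and 24 CPM at 48 h, against 261, 286, 281 and 244 CPM in Control (log2 fold change -4.42 ± 0.42 SE, edgeR adjusted p = 1.45e-08 at 24 h and -3.26 ± 0.40 SE, edgeR adjusted p = 3.24e-07 at 48 h). Cyp2j13 was called lower at every time, with a log2 fold change of -1.28 ± 0.28 (SE, edgeR adjusted p = 0.00158) at 6 h and -5.24 ± 0.34 (SE, edgeR adjusted p = 1.96e-11) at 72 h. Cyp2j6 was not called at 6 or 24 h and was lower at 48 h (log2 fold change -1.42 ± 0.30 SE, edgeR adjusted p = 0.000314). It was also lower at 72 h (log2 fold change -0.82 ± 0.29 SE, edgeR adjusted p = 0.0200), a call that was lost without IRI 72 h library 2 (edgeR adjusted p = 0.0553).

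Of 15 CYP2C members, Cyp2c23, the main renal epoxygenase of the subfamily in rodents, was the only one tested in the temporal table. It had 7.58, 4.99, 5.31 and 4.83 CPM at 24 h, against 35.3, 27.3, 27.2 and 33.9 CPM in Control. The groups did not overlap (log2 fold change -2.45 ± 0.53 SE, edgeR adjusted p = 0.000611). At 6 h it had 4.5, 23.2, 24.3 and 22.8 CPM, where library 1 lay far under the other 3 and the call was not made (edgeR adjusted p = 0.372). It remained called at 48 h (log2 fold change -2.15 ± 0.53 SE, edgeR adjusted p = 0.00148) and 72 h (log2 fold change -2.12 ± 0.53 SE, edgeR adjusted p = 0.00172).

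The CYP4A enzymes hydroxylate the end of fatty acids and are classical targets of the receptor PPARalpha. Of the 17 CYP4 members, 12 were tested, and 2 were higher and 2 lower at 6 h, 2 higher and 6 lower at 24 h, 4 higher and 6 lower at 48 h, and 6 higher and 4 lower at 72 h. Cyp4a14 had 52.3, 33.2, 54.5 and 49 CPM in Control and 339.6, 197, 204 and 244 CPM at 6 h. It had 30.7, 5.75, 17.4 and 19.7 at 24 h, 13.8, 13.8, 10.7 and 11.6 at 48 h and 49.9, 15.8, 41.7 and 54.6 CPM at 72 h. Every 6 h library was above and every 24 and 48 h library below Control, with log2 fold changes of 2.38 ± 0.35 (SE, edgeR adjusted p = 3.08e-05), -1.37 ± 0.35 (SE, edgeR adjusted p = 0.00283) and -1.92 ± 0.36 (SE, edgeR adjusted p = 0.000110). Its neighbour Cyp4a10 had 369, 292, 376 and 341 CPM at 6 h, not called (edgeR adjusted p = 0.361), and 113, 42.2, 54.7 and 67 CPM at 24 h, against 271, 254, 296 and 289.8 CPM in Control. All 24 h libraries were below Control (log2 fold change -2.01 ± 0.22 SE, edgeR adjusted p = 1.08e-07), as were those of 48 h (log2 fold change -2.99 ± 0.23 SE, edgeR adjusted p = 3.11e-10) and 72 h (log2 fold change -2.73 ± 0.23 SE, edgeR adjusted p = 8.72e-10). Cyp4a31, whose longest open reading frame is 96.6% identical to that of Cyp4a10, was at 141, 51.7, 68.1 and 72.2 CPM at 24 h, against 331, 319.9, 366 and 352 CPM in Control (log2 fold change -2.04 ± 0.30 SE, edgeR adjusted p = 7.78e-06). Reads could be split between Cyp4a10 and Cyp4a31, and their single values are uncertain. Cyp4a32, another neighbour, was at 0 in all 72 h libraries, against 5.41, 4.79, 4.71 and 5.38 CPM in Control, at least 31.6-fold lower with the floor of 3 counts.

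Some CYP4F members, which hydroxylate leukotrienes and long fatty acids, were higher late in injury. Cyp4f16 had 9.81, 10.2, 9.07 and 8.94 CPM in Control and 29.7, 17.2, 17.9 and 19.2 CPM at 6 h. It had 17.7, 28, 23.9 and 26.3 at 24 h and 32.5, 44.8, 67.8 and 36.5 CPM at 48 h. No library of these 3 times overlapped Control, and the log2 fold change was 1.33 ± 0.32 (SE, edgeR adjusted p = 0.00151) at 24 h and 2.26 ± 0.32 (SE, edgeR adjusted p = 3.48e-06) at 48 h. The 6 h call (log2 fold change 1.14 ± 0.31 SE, edgeR adjusted p = 0.0118) was lost without IRI 6 h library 1 (edgeR adjusted p = 0.0613). Cyp4f13 was first lower, at 28.7, 30.2, 29.5 and 27.6 CPM at 6 h, and then higher, at 82.5, 95.1, 105 and 70.3 CPM at 48 h, against 41.5, 42.5, 43.4 and 44.1 CPM in Control. The 6 h fall (log2 fold change -0.56 ± 0.16 SE, edgeR adjusted p = 0.0126) was not called with total counts in place of TMM, at -0.42 (adjusted p = 0.0897) in edgeR, nor without the filter, at -0.54 (adjusted p = 0.0757) in edgeR, whereas the log2 fold change at 48 h was 1.04 ± 0.16 (SE, edgeR adjusted p = 7.17e-06). Cyp4f15 rose at 72 h to 6.35, 5.33, 9.01 and 5.18 CPM, against 1.47, 0.774, 0.90 and 0.768 CPM in Control (log2 fold change 2.71 ± 0.67 SE, edgeR adjusted p = 0.00161). Cyp4f14, which lies beside Cyp4f13, fell to 0.149, 0.511, 0.0708 and 0.205 CPM at 24 h and 0 at 48 h, against 2.87, 2.75, 3.39 and 2.86 CPM in Control, at least 24.9-fold lower at 48 h. The 24 h call (log2 fold change -3.64 ± 1.17 SE, edgeR adjusted p = 0.0169) was lost without IRI 24 h libraries 1, 3 or 4 (edgeR adjusted p 0.0580 to 0.0689).

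Of 6 sterol and bile acid enzymes, 4 were tested, and 2 were lower at 6 h, 3 lower and 1 higher at 24 h, 2 lower and 1 higher at 48 h, and 3 lower and 1 higher at 72 h. Cyp7b1, the oxysterol 7-alpha-hydroxylase, had 365, 411, 409 and 346 CPM in Control and 13.7, 18.4, 12.1 and 21.9 CPM at 6 h. It had 23.5, 23.3, 17.9 and 18.5 at 24 h, 41.8, 61.7, 92.6 and 42.9 at 48 h and 41.6, 108, 42.9 and 107 CPM at 72 h. The lowest levels were thus at 6 and 24 h, and all 48 and 72 h libraries were above those of 24 h and below Control. The log2 fold change was -4.53 ± 0.33 (SE, edgeR adjusted p = 2.74e-09) at 6 h, -4.21 ± 0.32 (SE, edgeR adjusted p = 6.92e-10) at 24 h and -2.36 ± 0.30 (SE, edgeR adjusted p = 4.98e-07) at 72 h. Cyp27a1, the mitochondrial sterol 27-hydroxylase, had 19.2, 23.4, 22.4 and 24.7 CPM at 6 h and 13.9, 10.3, 11.2 and 13.7 CPM at 48 h, against 51.6, 65.4, 57.2 and 53.4 CPM in Control. The groups did not overlap (log2 fold change -1.34 ± 0.32 SE, edgeR adjusted p = 0.00383 at 6 h and -2.21 ± 0.34 SE, edgeR adjusted p = 7.31e-06 at 48 h). Cyp46a1, the cholesterol 24-hydroxylase best known from neurons, rose to 6.42, 11.4, 21.2 and 7.99 CPM at 48 h and 17.3, 15.8, 4.81 and 15.5 CPM at 72 h, against 1.02, 1.34, 0.83 and 1.19 CPM in Control. All late libraries were above Control (log2 fold change 3.42 ± 0.52 SE, edgeR adjusted p = 7.55e-06 at 48 h and 3.60 ± 0.52 SE, edgeR adjusted p = 3.88e-06 at 72 h). Cyp39a1, an oxysterol 7-alpha-hydroxylase acting on 24-hydroxycholesterol, was lower at 24 h (log2 fold change -1.50 ± 0.49 SE, edgeR adjusted p = 0.0170), a call that was lost without IRI 24 h library 1 (edgeR adjusted p = 0.0548). Over the 5 group means of the temporal table, the members whose log2 CPM followed Cyp7b1 most closely were Cyp4f14 (Pearson r = 0.81), Cyp2j11 (r = 0.75) and Cyp2d9 (r = 0.67), as a description over 5 points that all come from the same libraries for each gene.

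The 3 vitamin D enzymes were all tested, and 2 were higher at 6 h, 1 was higher and 1 lower at 24 h, none was called at 48 h, and 2 were lower at 72 h. Cyp24a1, the 24-hydroxylase that degrades active vitamin D, had 46, 58.3, 51.1 and 50.2 CPM in Control and 294, 192, 168 and 150.2 CPM at 6 h. It had 40.4, 26, 21.5 and 21.6 at 24 h, 50.4, 16.4, 62.1 and 53.1 at 48 h and 10.1, 8.82, 24.4 and 15.3 CPM at 72 h. All 6 h libraries were above Control, all 24 and 72 h libraries below, and those of 48 h on both sides. The log2 fold change was 1.97 ± 0.33 (SE, edgeR adjusted p = 0.000122) at 6 h and -1.81 ± 0.34 (SE, edgeR adjusted p = 0.000115) at 72 h. At 24 h it was -0.92 ± 0.32 (SE, edgeR adjusted p = 0.0261), a call that was lost without Control library 2 or IRI 24 h libraries 2, 3 or 4 (edgeR adjusted p 0.0599 to 0.0802) and that total counts in place of TMM also ended, at -0.77 (adjusted p = 0.0650) in edgeR. Cyp27b1, the 1-alpha-hydroxylase that makes active vitamin D, had 2.8, 6.55, 7.06 and 2.79 CPM in Control and 59.1, 7.81, 5.41 and 6.46 CPM at 6 h. It had 52.3, 19.4, 63.3 and 44.9 at 24 h, 14.7, 10.9, 7.25 and 11.8 at 48 h and 3.72, 9.44, 13.8 and 4.24 CPM at 72 h. All 24 h libraries were above Control (log2 fold change 3.23 ± 0.66 SE, edgeR adjusted p = 0.000338). The 6 h call (log2 fold change 2.03 ± 0.63 SE, edgeR adjusted p = 0.0257) rested on library 1, and without it the log2 fold change was 0.46 (edgeR adjusted p = 0.660). It was also lost without Control library 1 (edgeR adjusted p = 0.0857) or 4 (edgeR adjusted p = 0.0848), with the replicate block, at 1.68 (adjusted p = 0.0946) in edgeR, and with only the 2 groups fitted, at 2.12 (adjusted p = 0.0516) in edgeR. Cyp2r1, a vitamin D 25-hydroxylase, had 0 counts in all 72 h libraries, against 1.34, 1.69, 2.77 and 2.44 CPM in Control, at least 12.8-fold lower with the floor of 3 counts. By likeness over the same 5 group means, Cyp24a1 was followed most closely by Cyp1b1 (Pearson r = 0.91), Cyp2r1 (r = 0.82) and Cyp2a5 (r = 0.79).

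Cyp1b1, which oxidises oestrogens and polycyclic hydrocarbons and is a target of the aryl hydrocarbon receptor AHR, had 11.7, 5.5, 28.6 and 23.8 CPM at 24 h and 12, 22.6, 11 and 20 CPM at 72 h, against 55.3, 47.7, 47.4 and 48.5 CPM in Control. Neither time overlapped Control (log2 fold change -1.50 ± 0.35 SE, edgeR adjusted p = 0.00144 at 24 h and -1.60 ± 0.36 SE, edgeR adjusted p = 0.000701 at 72 h). At 6 h its libraries had 80.3, 62.9, 68.7 and 63.8 CPM, all above Control but not called (edgeR adjusted p = 0.408). Cyp2s1, which is expressed in epithelia and can metabolise retinoic acid and lipid peroxides, was higher at every time. It had 45.9, 46.6, 44.7 and 40.4 CPM at 6 h, against 17.9, 19.1, 21.6 and 21 CPM in Control. The groups did not overlap (log2 fold change 1.16 ± 0.26 SE, edgeR adjusted p = 0.00223). At 72 h it had 50.4, 20.3, 70.1 and 32 CPM, with library 2 within the Control range (log2 fold change 1.12 ± 0.26 SE, edgeR adjusted p = 0.000919). Its 48 h call (log2 fold change 0.78 ± 0.26 SE, edgeR adjusted p = 0.0147) was lost without IRI 48 h library 3 (edgeR adjusted p = 0.0684). Cyp20a1, an orphan enzyme, was lower at 48 h (log2 fold change -1.64 ± 0.35 SE, edgeR adjusted p = 0.000384).

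From 24 to 48 h, within 1 count block, 6 members were higher and 13 lower, a share of 46.3%. Of all genes, 9% were higher and 12.1% lower (21.1% together). Cyp4b1 fell further (log2 fold change -2.08 ± 0.27 SE, edgeR adjusted p = 1.38e-05), as did Cyp2a5 (log2 fold change -2.37 ± 0.40 SE, edgeR adjusted p = 0.000185) and Cyp2e1 (log2 fold change -1.96 ± 0.33 SE, edgeR adjusted p = 0.000215), while Cyp7b1 rose (log2 fold change 1.53 ± 0.30 SE, edgeR adjusted p = 0.000737), as did Cyp46a1 (log2 fold change 2.01 ± 0.49 SE, edgeR adjusted p = 0.00488). From 48 to 72 h, 2 were higher and 5 lower (17.1%). Over all genes tested, 2.04% were higher and 3.63% lower, 5.67% in all. Cyp4a14 was among the rises (log2 fold change 1.70 ± 0.37 SE, edgeR adjusted p = 0.0117) and Cyp24a1 among the falls (log2 fold change -1.63 ± 0.35 SE, edgeR adjusted p = 0.00996). None of these 7 calls was made by edgeR when only the 48 and 72 h libraries were fitted, a fit that called 24 of 14479 genes and gave an unadjusted p under 0.05 to 1164. DESeq2 on all groups called 8 members and 1703 of 16653 genes, against 944 genes called by edgeR on all groups.

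In the therapy experiment 43 members passed the filter. AKI kidneys had 7 members higher and 8 lower than Control, 34.9% of those tested. The background over all genes was 20% higher and 15.1% lower, or 35% in either direction. The members' share was thus no higher than that over all genes. BM-MSC kidneys had 4 higher and 4 lower than Control (18.6%). Of all genes, 6.56% were higher and 2.36% lower (8.92% together). UC-MSC kidneys had 13 higher and 13 lower (60.5%). Over all genes tested, 20.4% were higher and 16.7% lower, 37.1% in all. The BM-MSC count was 14 with DESeq2 and 25 when only the 2 groups were fitted, and it was 5 without Control library 1 or 2 and 4 without BM-MSC library 4. Of all genes, DESeq2 called 2390 of 16623 and the fit of 2 groups 4970 of 15654. Without AKI library 1 the AKI count was 23, with 7 higher and 16 lower. The count over all genes without that library is not given here, so the 23 cannot be set against the 35% above. The summed member level was 8743 to 10025 CPM in AKI, 3386 to 6134 in BM-MSC and 3535 to 12121 CPM in UC-MSC, against 9868 to 10809.8 CPM in Control. The AKI range and, through library 4, the UC-MSC range overlapped Control, and that of BM-MSC did not. A large part of the sum in AKI libraries 2 to 4 was Cyp2a5, with 41676, 50748 and 51731 counts, against 2075 to 2857 in Control. Sums of tubule markers, without the names whose AKI counts repeat IRI 6 h, lay below Control in every library of the 3 groups, except that the S1 and S2 sum in AKI overlapped Control. Those of S1 and S2 (4 of 6) summed to 2982 to 6525 CPM in AKI, 2256 to 5648 in BM-MSC and 1044 to 4018 CPM in UC-MSC, against 6202 to 7697 CPM in Control. Those of S3 (5 of 6) summed to 716 to 2203 CPM in AKI, 921 to 2214 in BM-MSC and 408 to 2324 CPM in UC-MSC, against 3805 to 4839 CPM in Control. The thick ascending limb markers (2 of 3) summed to 94.3 to 1418 CPM in AKI, 590.1 to 1264 in BM-MSC and 144 to 878 CPM in UC-MSC, against 2012 to 2208 CPM in Control. Neutrophil markers summed to 4.14 to 21.9 CPM in AKI, 9.71 to 252 in BM-MSC and 45.8 to 476 CPM in UC-MSC, against 1.49 to 3.39 CPM in Control, with every library of the 3 groups above Control. Their part in the members' changes was not tested.

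**Figure D4:**
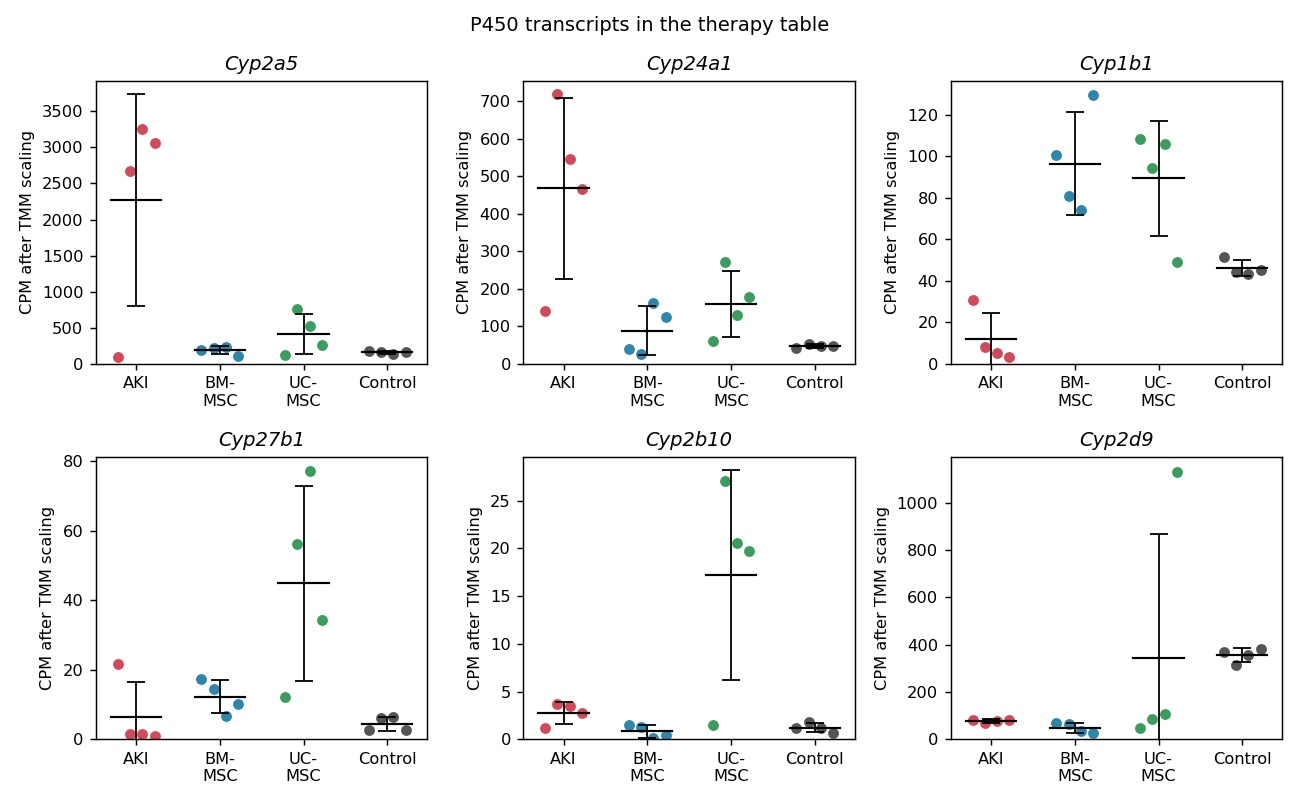
CPM after TMM scaling (vertical axes, linear from 0) of 6 members in the 4 libraries of AKI, BM-MSC, UC-MSC and Control (horizontal axes). Points are libraries, lines are means and bars are SDs, cut off at 0. AKI library 1 stands away from AKI libraries 2 to 4 for Cyp2a5, Cyp24a1, Cyp1b1 and Cyp27b1, and UC-MSC library 4 for Cyp2d9.

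Cyp2a5, which had the largest rise among called members in AKI against Control, had 99.4, 2673, 3253 and 3060.4 CPM in AKI, against 169.6, 166, 131 and 168 CPM in Control. The log2 fold change was 3.84 ± 0.75 (SE, edgeR adjusted p = 0.00112). AKI libraries 2 to 4 were far above and library 1 below every Control library. Cyp2a4 had 126, 571, 1174 and 739 CPM in AKI and was not called (edgeR adjusted p = 0.516). The ratio of Cyp2a5 to Cyp2a4 counts was 0.787 to 4.68 in AKI, 0.998 to 1.45 in BM-MSC and 1.02 to 6.71 in UC-MSC, against 0.272 to 0.364 in Control. Cyp2a5 was lower than in AKI in BM-MSC kidneys (log2 fold change -3.61 ± 0.74 SE, edgeR adjusted p = 0.00176), with 196, 217, 226 and 105 CPM, and in UC-MSC kidneys (log2 fold change -2.46 ± 0.70 SE, edgeR adjusted p = 0.0113), with 119, 755, 522 and 258 CPM. The second of these was not called by edgeR with only the 2 groups fitted, at -2.47 (adjusted p = 0.0679).

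Cyp24a1 had 142, 719.7, 545 and 466 CPM in AKI, 39.7, 27.2, 162 and 124 in BM-MSC and 61.1, 271, 129 and 179 CPM in UC-MSC, against 42.9, 53.8, 46.7 and 46.9 CPM in Control. All AKI and UC-MSC libraries were above Control, and BM-MSC libraries were on both sides. The log2 fold change was 3.30 ± 0.59 (SE, edgeR adjusted p = 0.000602) in AKI, and that of BM-MSC against AKI was -2.41 ± 0.57 (SE, edgeR adjusted p = 0.00429). For UC-MSC against Control it was 1.75 ± 0.55 (SE, edgeR adjusted p = 0.0213), a call that was lost without Control libraries 1, 3 or 4 or UC-MSC library 2 (edgeR adjusted p 0.0503 to 0.0773). For UC-MSC against AKI it was -1.55 ± 0.55 (SE, edgeR adjusted p = 0.0334), which was lost without AKI libraries 2, 3 or 4 or UC-MSC libraries 1, 3 or 4 (edgeR adjusted p 0.0516 to 0.0989), and which edgeR on those 2 groups alone put at -1.56 (adjusted p = 0.0563).

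Cyp27b1 had 12.1, 56.2, 77.3 and 34.4 CPM in UC-MSC and 17.5, 14.5, 6.83 and 10.1 CPM in BM-MSC, against 2.61, 6.04, 6.44 and 2.61 CPM in Control. All UC-MSC and BM-MSC libraries were above Control, and UC-MSC alone was called (log2 fold change 3.34 ± 0.85 SE, edgeR adjusted p = 0.00620, against an edgeR adjusted p of 0.281 for BM-MSC). The AKI libraries had 21.6, 1.6, 1.6 and 0.887 CPM, with library 1 high and the other 3 below every Control library. UC-MSC exceeded AKI by a log2 fold change of 2.82 ± 0.83 (SE, edgeR adjusted p = 0.0129), and without AKI library 1 by 5.02 (edgeR adjusted p = 1.05e-05), while edgeR on these 2 groups alone gave 2.80 (adjusted p = 0.0662). Cyp27b1 was not called between UC-MSC and BM-MSC (edgeR adjusted p = 0.102).

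Cyp1b1 had 30.5, 8.27, 4.94 and 3.37 CPM in AKI, 101, 80.8, 74.2 and 129.6 in BM-MSC and 108, 94.3, 106 and 48.8 CPM in UC-MSC, against 51.5, 44.1, 43.3 and 45.4 CPM in Control. The AKI libraries were all below Control (log2 fold change -1.97 ± 0.50 SE, edgeR adjusted p = 0.00623), and without library 1 the log2 fold change was -3.09 (edgeR adjusted p = 2.14e-06). BM-MSC and UC-MSC exceeded AKI by a log2 fold change of 3.04 ± 0.51 (SE, edgeR adjusted p = 0.000436) and 2.93 ± 0.51 (SE, edgeR adjusted p = 0.000409), and 7 of these 8 libraries were also above every Control library. The 250 bases before the Cyp1b1 start site (RefSeq, GRCm38.p6, minus strand, chr17:79715062-79715311) are shown because of this contrast. They hold GCGTG, the core of the element that AHR and its partner ARNT bind, 1 time on the reverse strand, as the capitals CACGC starting 76 bases before the start site.
Cyp1b1: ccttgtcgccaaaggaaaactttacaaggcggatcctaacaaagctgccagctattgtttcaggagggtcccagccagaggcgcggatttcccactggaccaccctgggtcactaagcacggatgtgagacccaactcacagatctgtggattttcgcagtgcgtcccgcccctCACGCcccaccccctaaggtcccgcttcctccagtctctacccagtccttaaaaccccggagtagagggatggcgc
This core stood on either strand in 19.3% of the 83 windows of members and in 28.2% of all 32851 promoter windows. Ahr itself was not called in AKI (edgeR adjusted p = 0.711), and its repressor Ahrr was lower (log2 fold change -3.74 ± 0.84 SE, edgeR adjusted p = 0.00296). Ahrr counts were low, at 1, 0, 0 and 4 in AKI, against 20, 19, 14 and 20 in Control. They were 7, 13, 8 and 17 in BM-MSC and 14, 4, 5 and 0 in UC-MSC. Whether AHR had a part in the Cyp1b1 contrast was not tested. Cyp1a1, the other CYP1 member tested here, did not follow Cyp1b1. Against AKI it was lower in BM-MSC (log2 fold change -1.51 ± 0.53 SE, edgeR adjusted p = 0.0368). In UC-MSC it was not called (log2 fold change -1.36 ± 0.53 SE, edgeR adjusted p = 0.0504). The BM-MSC call was lost with total counts, without the filter, with the replicate block and with only the 2 groups fitted (edgeR adjusted p 0.0511 to 0.0997).

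Of the CYP4A genes, Cyp4a14 had 439.5, 177, 446 and 328 CPM in BM-MSC and 206, 691, 383 and 1587 CPM in UC-MSC, against 48.7, 30.6, 49.7 and 45.8 CPM in Control. All 8 libraries were above Control (log2 fold change 2.99 ± 0.53 SE, edgeR adjusted p = 0.00355 in BM-MSC and 4.04 ± 0.55 SE, edgeR adjusted p = 7.84e-05 in UC-MSC). In AKI it had 125, 37.3, 76.9 and 82.4 CPM and was not called against Control (edgeR adjusted p = 0.178), and BM-MSC and UC-MSC exceeded AKI by a log2 fold change of 2.11 ± 0.51 (SE, edgeR adjusted p = 0.00499) and 3.16 ± 0.53 (SE, edgeR adjusted p = 0.000301). Cyp4a10 was called in UC-MSC (log2 fold change 1.50 ± 0.41 SE, edgeR adjusted p = 0.00917), and without library 4 its log2 fold change was 0.94 (edgeR adjusted p = 0.0386).

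Cyp7b1 was lower than Control in all 3 injured groups, at 33.5, 7.12, 9.68 and 10.8 CPM in AKI, 71.6, 73.8, 34.7 and 31.9 in BM-MSC and 45.7, 20.3, 20.3 and 204 CPM in UC-MSC, against 339.9, 379, 373 and 323 CPM in Control. No library of the 3 groups reached Control (log2 fold change -4.54 ± 0.73 SE, edgeR adjusted p = 0.000264 in AKI and -2.29 ± 0.65 SE, edgeR adjusted p = 0.0123 in UC-MSC). Without UC-MSC library 4 the log2 fold change in UC-MSC was -3.62 (edgeR adjusted p = 0.000138), and the BM-MSC call (log2 fold change -2.74 ± 0.67 SE, edgeR adjusted p = 0.0176) was lost without BM-MSC libraries 3 or 4 (edgeR adjusted p 0.0555 to 0.0730). Cyp2d12 was likewise lower in AKI (log2 fold change -2.50 ± 0.39 SE, edgeR adjusted p = 0.000213), BM-MSC (log2 fold change -2.67 ± 0.39 SE, edgeR adjusted p = 0.00144) and UC-MSC (log2 fold change -2.41 ± 0.39 SE, edgeR adjusted p = 0.000258). Cyp2d9 had 49.7, 86, 109 and 1128 CPM in UC-MSC, where library 4 alone stood above Control, and 68.3, 65.9, 36 and 25.9 CPM in BM-MSC, against 369, 314, 357 and 380.5 CPM in Control. UC-MSC exceeded BM-MSC by a log2 fold change of 2.81 ± 0.74 (SE, edgeR adjusted p = 0.0144), and without UC-MSC library 4 by 0.73 (edgeR adjusted p = 0.0981). The call was also missed with the replicate block, at 2.04 (adjusted p = 0.0899) in edgeR, and with only the 2 groups fitted, at 2.81 (adjusted p = 0.0602) in edgeR.

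Cyp3a13, a CYP3A enzyme expressed outside the liver, was at 3.95, 4.63, 4.96 and 2.41 CPM in UC-MSC, 3.58, 2.69, 2.76 and 1.95 in AKI and 2.93, 1.93, 1.64 and 2.66 CPM in BM-MSC, against 0.416, 0.91, 0.758 and 0.718 CPM in Control. All 12 libraries were above Control (log2 fold change 2.51 ± 0.35 SE, edgeR adjusted p = 9.55e-05 in UC-MSC, 1.96 ± 0.35 SE, edgeR adjusted p = 0.000602 in AKI and 1.70 ± 0.35 SE, edgeR adjusted p = 0.00713 in BM-MSC). Cyp2b10 had 1.48, 27, 20.6 and 19.7 CPM in UC-MSC and 1.46, 1.33, 0.169 and 0.42 CPM in BM-MSC, against 1.25, 1.82, 1.2 and 0.653 CPM in Control. UC-MSC libraries 2 to 4 were high and library 1 was within the Control range (log2 fold change 3.80 ± 0.73 SE, edgeR adjusted p = 0.000961 against Control). Cyp26b1, which degrades retinoic acid, was higher in UC-MSC, with 9.16, 12.4, 13.3 and 28 CPM, against 1.9, 3.12, 3.73 and 2.42 CPM in Control (log2 fold change 2.49 ± 0.72 SE, edgeR adjusted p = 0.0130). Cyp2u1, a fatty acid hydroxylase, was higher in AKI (log2 fold change 1.23 ± 0.31 SE, edgeR adjusted p = 0.00678), where libraries 2 to 4 had 13.1 to 19.5 CPM and library 1 had 5.06 CPM.

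Between the 2 cell sources, 4 members were higher and 2 lower in UC-MSC than in BM-MSC, 14.0% of those tested. The background over all genes was 10% higher and 10.4% lower, or 20.5% in either direction. Cyp2c23 was lower in UC-MSC, with 11.7, 5.92, 5.53 and 11.3 CPM, against 31.2, 35.9, 33 and 12.7 CPM in BM-MSC, without overlap (log2 fold change -1.71 ± 0.32 SE, edgeR adjusted p = 0.00252). Cyp2b10 was higher (log2 fold change 4.35 ± 0.75 SE, edgeR adjusted p = 0.00175), as was Cyp4f17 (log2 fold change 1.60 ± 0.32 SE, edgeR adjusted p = 0.00353), with 10.8, 34.3, 32.1 and 32.7 CPM in UC-MSC, against 8.78, 9.59, 9.6 and 8.35 CPM in BM-MSC. Against AKI, BM-MSC had 5 members higher and 8 lower (30.2%). Of all genes, 16.3% were higher and 17.1% lower (33.4% together). The balance of rises and falls depended on the setting, with 7 higher and 5 lower under total counts in place of TMM and 10 and 8 without AKI library 1. The members' median log2 fold change was -0.05, or 0.20 under total counts. UC-MSC had 11 higher and 8 lower than AKI (44.2%). Over all genes tested, 20.3% were higher and 20.2% lower, 40.5% in all. The BM-MSC count was 8 without BM-MSC library 4, and the UC-MSC count was 11 when only these 2 groups were fitted. That fit of 2 groups called 3535 of 15417 genes.

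Since AKI and IRI 6 h carry the same labelled time and library names, they were also compared in a fit added after the values were seen. AKI had 10 members higher and 4 lower than IRI 6 h (32.6%), with or without the 14 names of repeated counts, and 9 in all without AKI library 4. The background over all genes was 16.8% higher and 17.6% lower, or 34.5% in either direction. Cyp2a4 was higher in AKI (log2 fold change 2.57 ± 0.52 SE, edgeR adjusted p = 0.00102), Cyp1b1 lower (log2 fold change -2.55 ± 0.47 SE, edgeR adjusted p = 0.000398) and Cyp4a14 lower (log2 fold change -1.61 ± 0.47 SE, edgeR adjusted p = 0.0125). Set against IRI 6 h in place of AKI, BM-MSC had 0 members called by edgeR, and 0 of 16821 genes, although 2700 had an unadjusted p under 0.05. DESeq2 called 1 member and 211 genes, and edgeR without BM-MSC library 4 called 1 member. UC-MSC had 7 members higher and 1 lower than IRI 6 h (18.6%). Of all genes, 5.21% were higher and 6.4% lower (11.6% together). The members' count was 4 without IRI 6 h library 2, 3 or 4 and 5 without UC-MSC library 2 or 4. Among them were Cyp2d22 (log2 fold change 1.33 ± 0.25 SE, edgeR adjusted p = 0.00564), Cyp4f17 (log2 fold change 1.42 ± 0.30 SE, edgeR adjusted p = 0.00907) and Cyp2d12 (log2 fold change 1.71 ± 0.38 SE, edgeR adjusted p = 0.0109). Count blocks were found within each table and were not compared across tables. IRI 6 h shares a block with Control in the temporal table. BM-MSC and UC-MSC share one with Control in the therapy table, and AKI does not.

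Some P450 transcripts were also lower after surgery without ischaemia. In the sham experiment 47 members were tested, of which 3 were higher and 12 lower at 24 h than in the sham control group, 31.9% of those tested. Over all genes tested, 7.7% were higher and 13.1% lower, 20.8% in all. The summed member level was 1357 to 1844 CPM in sham 24 h, against 3933 to 5165 CPM in sham control, without overlap. Both lay below the Control libraries of the other tables, which were counted and scaled separately. Cyp2a4 had 3.16, 1.23, 14.2 and 8.55 CPM in sham 24 h, against 232, 251, 206 and 178 CPM in sham control (log2 fold change -4.99 ± 0.47 SE, edgeR adjusted p = 2.53e-06). Cyp2a5 had 7.54, 14.6, 22.4 and 16.1 CPM in sham 24 h, against 92.9, 158, 101 and 132 CPM in sham control (log2 fold change -2.99 ± 0.25 SE, edgeR adjusted p = 1.19e-06). The counts of Cyp2a5 over those of Cyp2a4 were 1.57 to 11.8 in sham 24 h, against 0.40 to 0.743 in sham control, so this ratio was higher after surgery alone too. Cyp4b1 had 206, 141, 170.3 and 229 CPM in sham 24 h, against 984, 1666, 974 and 1438 CPM in sham control (log2 fold change -2.76 ± 0.19 SE, edgeR adjusted p = 1.75e-07), and Cyp2e1 fell too (log2 fold change -2.76 ± 0.20 SE, edgeR adjusted p = 3.69e-07). For each of these, all sham 24 h libraries were below all sham control libraries.

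Cyp7b1 was lower too (log2 fold change -2.64 ± 0.23 SE, edgeR adjusted p = 1.38e-06), with 18, 11.4, 19.4 and 26 CPM in sham 24 h, against 154, 93.3, 133 and 83.8 CPM in sham control. Cyp2d12 (log2 fold change -2.65 ± 0.16 SE, edgeR adjusted p = 8.78e-08), Cyp2j13 (log2 fold change -2.61 ± 0.14 SE, edgeR adjusted p = 3.64e-08), Cyp2j5 (log2 fold change -1.45 ± 0.14 SE, edgeR adjusted p = 3.89e-06) and Cyp27a1 (log2 fold change -0.82 ± 0.13 SE, edgeR adjusted p = 0.000206) fell as well. Cyp4a14 rose to 32.3, 40.5, 48.7 and 37.2 CPM in sham 24 h, against 5.45, 4.35, 7.82 and 5.88 CPM in sham control (log2 fold change 2.75 ± 0.18 SE, edgeR adjusted p = 1.68e-07), and Cyp4a10 rose less (log2 fold change 0.67 ± 0.16 SE, edgeR adjusted p = 0.00602). Cyp24a1 had 37.3, 49.9, 41.3 and 105 CPM in sham 24 h, against 40.3, 38.9, 41.1 and 37.5 CPM in sham control, and was not called (edgeR adjusted p = 0.112). Cyp3a11, the main liver CYP3A enzyme, was called higher (edgeR adjusted p = 0.0230) with 0.381, 0.379, 0.471 and 0.796 CPM in sham 24 h, against 0, 0.0724, 0 and 0 CPM in sham control, a call that was lost without sham control libraries 1, 3 or 4 or sham 24 h library 4 (edgeR adjusted p 0.0736 to 0.110). The liver markers summed to 11.2 to 20.2 CPM in sham 24 h, against 7.77 to 10.7 CPM in sham control, and their part in it was not tested. Neither Cyp27b1 (edgeR adjusted p = 0.616) nor Cyp2s1 (edgeR adjusted p = 0.778) was called after sham surgery. The summed S1 and S2 markers were 2996 to 3895 CPM in sham 24 h, against 5414 to 7789 CPM in sham control, and the S3 markers 3392 to 3705 CPM in sham 24 h, against 3722 to 4439 CPM in sham control. Their part in the falls was not tested.

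The difference between IRI and sham surgery at 24 h, each against its own control, was tested as a difference of 2 log2 fold changes in a joint fit. Of 49 members tested, 5 had a higher and 12 a lower value for IRI, 34.7% of those tested. The background over all genes was 13.8% higher and 10.5% lower, or 24.3% in either direction. Cyp4a14 had a log2 difference of -4.10 ± 0.45 (SE, edgeR adjusted p = 3.12e-08) and Cyp4a10 of -2.66 ± 0.29 (SE, edgeR adjusted p = 3.26e-08), both lower after IRI and higher after sham surgery. Cyp2j11 (log2 difference -3.53 ± 0.47 SE, edgeR adjusted p = 9.18e-07), Cyp2d26 (log2 difference -2.73 ± 0.54 SE, edgeR adjusted p = 0.000219), Cyp2j5 (log2 difference -2.15 ± 0.37 SE, edgeR adjusted p = 3.76e-05) and Cyp7b1 (log2 difference -1.54 ± 0.40 SE, edgeR adjusted p = 0.00420) fell further after IRI. Cyp27b1 was higher after IRI, by a log2 difference of 2.98 ± 0.80 (SE, edgeR adjusted p = 0.00569). Cyp2a4 (log2 difference 2.22 ± 0.57 SE, edgeR adjusted p = 0.00369) and Cyp2a5 (log2 difference 2.82 ± 0.51 SE, edgeR adjusted p = 7.41e-05) had the higher value after IRI, where Cyp2a4 fell less (log2 fold change -2.80 ± 0.32 SE, edgeR adjusted p = 2.16e-07) and Cyp2a5 was not called (edgeR adjusted p = 0.707). The falls of Cyp4b1 and Cyp2e1 were not called different (edgeR adjusted p = 0.815 and 0.385), with log2 differences of -0.16 ± 0.35 and 0.57 ± 0.43 (SE). The 2 tables differ in depth, and the IRI 24 h libraries come from another count block than their Control.

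The electron donors and regulators of P450 enzymes were listed with earlier results known. The shares of all genes called, against which the counts of these lists are to be read, were 18.9% at 6 h, 42% at 24 h, 53.7% at 48 h, 56.3% at 72 h, 35% in AKI, 8.92% in BM-MSC, 37.1% in UC-MSC and 20.8% after sham surgery. Of 7 partners tested, 1 was higher and 4 lower at 6 h, 1 higher and 5 lower at 24 h, and 2 higher and 5 lower at both 48 and 72 h. Por, the reductase that supplies microsomal P450 enzymes, was not called at 6 h (edgeR adjusted p = 0.313) and was lower at 24 h (log2 fold change -1.26 ± 0.27 SE, edgeR adjusted p = 0.000588) and 72 h (log2 fold change -2.88 ± 0.29 SE, edgeR adjusted p = 1.58e-08). After sham surgery 0 of 8 partners were higher and 5 lower, Por among them (log2 fold change -0.93 ± 0.10 SE, edgeR adjusted p = 7.95e-06), and in UC-MSC Por was not called (edgeR adjusted p = 0.141). In AKI 2 partners were higher and 2 lower, in BM-MSC 0 higher and 1 lower, and in UC-MSC 1 higher and 2 lower, of 7 tested. Of 12 regulators, 2 were lower at 6 h and 7 at 24 h, with none higher at either time, and at both 48 and 72 h 1 was higher and 7 lower. Ppara, the receptor that drives CYP4A genes, was not called at 6 h (edgeR adjusted p = 0.849) and lower at 24 h (log2 fold change -3.62 ± 0.60 SE, edgeR adjusted p = 3.15e-05). Hnf4a, a factor of liver and proximal tubule, was lower at 24 h (log2 fold change -2.49 ± 0.30 SE, edgeR adjusted p = 4.32e-07). Vdr, the vitamin D receptor that induces Cyp24a1, was lower at 6 h (log2 fold change -0.66 ± 0.18 SE, edgeR adjusted p = 0.0125), when Cyp24a1 was higher, and at 24 h (log2 fold change -2.68 ± 0.20 SE, edgeR adjusted p = 3.68e-10). Regulators were 1 higher and 4 lower in AKI, 0 higher and 1 lower in BM-MSC, 0 higher and 2 lower in UC-MSC, and 0 higher and 5 lower after sham surgery. Of 10 genes around vitamin D and epoxide handling, such as the endocytic receptors Lrp2 and Cubn and the epoxide hydrolase Ephx2, 2 were higher and 3 lower at 6 h, 0 and 6 at 24 h, 0 and 9 at 48 h, and 1 and 9 at 72 h. The same list without Lrp2, whose AKI counts repeat IRI 6 h, had 2 higher and 0 lower in AKI. With Lrp2 it had 1 higher and 0 lower in BM-MSC, 3 and 4 in UC-MSC, and 2 and 6 after sham surgery.

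The 5 adrenal steroid genes varied between libraries of the same group. Cyp11a1, which cleaves the cholesterol side chain, had 36.7, 2.96, 0.484 and 33 CPM in Control and 0.375, 0, 0.219 and 0.114 CPM at 6 h. It had 0.297, 0, 0.0708 and 0 at 24 h, 0, 0.369, 0 and 0.174 at 48 h and 0, 72, 0.601 and 95.6 CPM at 72 h. Control libraries 1 and 4 and 72 h libraries 2 and 4 were high, and the rest low. Cyp11b1, the 11-beta-hydroxylase, had 5.76, 132, 404 and 15.1 CPM in UC-MSC, 93.7, 0.385, 8.4 and 1.18 in AKI and 3.83, 0.0603, 0.791 and 0.466 CPM in BM-MSC, against 36.6, 2.86, 0.316 and 26.5 CPM in Control. Cyp21a1, the 21-hydroxylase, had 36.5, 3.28, 0.294 and 0 CPM in sham 24 h, against 0.224, 1.96, 5.78 and 79.8 CPM in sham control, with library 1 and library 4 high in their groups. The summed level of 6 adrenal cortex markers was 7.23 to 716 CPM at 72 h and 71.2 to 2729 CPM in UC-MSC, against 13.9 to 184 CPM in Control. That of 5 adrenal medulla markers was 24.5 to 701 CPM at 72 h and 3.4 to 283 CPM in UC-MSC, against 0.90 to 48.7 CPM in Control. Their part in these calls was not tested. Of 4 adrenal members tested, 3 were called lower at 6 h, 24 h and 48 h than in Control. Over all genes tested, 18.9%, 42% and 53.7% were called in either direction at these times. Cyp17a1, which makes sex steroids, was called higher at 48 h (log2 fold change 4.77 ± 1.43 SE, edgeR adjusted p = 0.00732), with 0, 51, 0 and 6 counts. That call was lost with the replicate block, at 3.79 (adjusted p = 0.0616) in edgeR. Cyp17a1 was also higher at 72 h (log2 fold change 6.07 ± 1.49 SE, edgeR adjusted p = 0.00150), with 2.19, 10.9, 4.41 and 8.01 CPM, against 0.255, 0, 0 and 0.0699 CPM in Control. Its 72 h libraries 1 and 3 had 10 and 22 counts, where Cyp11a1 had 0 and 3.

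**Figure D5:**
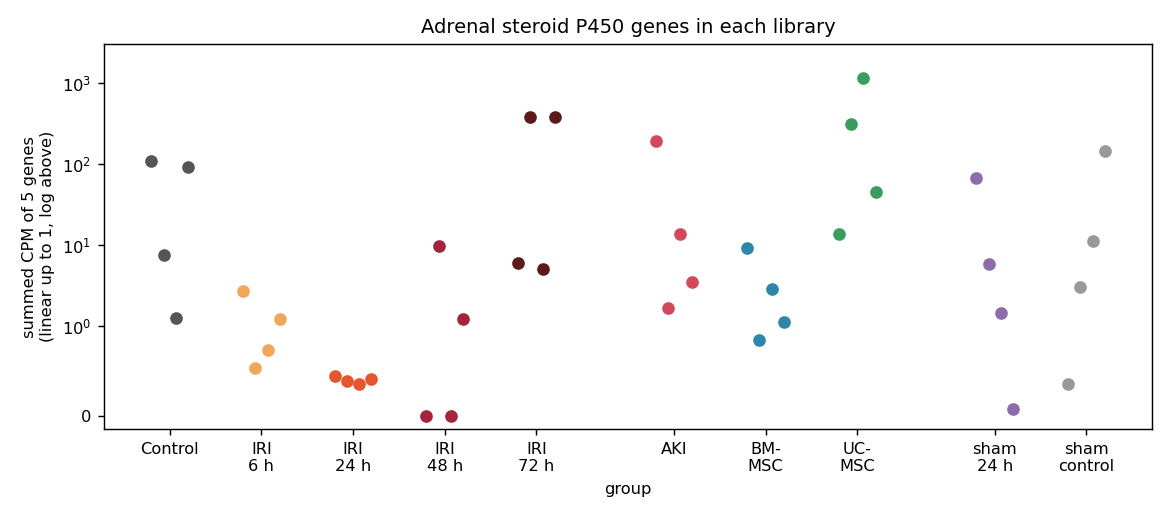
Summed CPM of the 5 adrenal steroid genes in each library (vertical axis, linear up to 1 and logarithmic above) by group (horizontal axis). In 72 h, UC-MSC, AKI, Control and both sham groups the highest library stands far above the lowest, while the IRI 24 h libraries lie close together below 1 CPM.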

How the data were processed

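Kidney RNA-seq was deposited as 3 tables of read counts per gene, made by the authors with HTSeq against GRCm39 (mm39), with DESeq2 also named, per the submitters' processing notes. Aligner, tool versions and strandedness are not given in the sources used here, so reads of overlapping or antisense genes cannot be told apart. The members and gene lists were chosen with earlier results of these data known.

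Repeated lines of a gene were reduced to 1, and 85 names that differed between tables, stood in only some of them or had repeated lines that disagreed were left out, 0 of them members. Counts were tested with edgeR 4.0.16 in R 4.3.3 (TMM, filterByExpr, glmQLFit and glmQLFTest, two-sided) over all groups of a table, with Benjamini-Hochberg adjustment over all genes tested and a threshold of 0.05. IRI and sham surgery were compared in 1 fit of both tables. SEs are the absolute log2 fold change over the square root of F. Member values in every library were given for called members with the largest changes in each role list and for a fixed set of 18 genes, and other members were named by their calls. Where a group was at 0, a bound on the fold took 3 counts for its libraries together and allows for counting error alone. Alternatives were DESeq2 1.42.0, 2 other scalings, no filter (at least 1 count), fits of only the groups compared, a replicate block, each library left out and, added after seeing the data, 14 names with repeated AKI counts left out. Fits were tested on simulated counts. Columns of 0 unmapped samples were found. One gene of the regulator list is not reported here.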

Additional observations from a re-analysis of the deposited data

Results flagged for a closer look

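Among 18 member genes followed in every group, 173 sets of 4 libraries were examined for a library far from the other 3 (Dixon's gap over range, 95% critical value), and 21 were found. This critical value passes about 1 in 20 sets of independent, normally spread values. The sets here share libraries and include values near 0, so that rate does not apply to them. AKI library 1 stood apart for 7 genes. It had 2780 CPM of Cyp4b1 against 1479 to 1592 in the other 3, 188 CPM of Cyp2d26 against 25.8 to 29.0, 33.5 CPM of Cyp7b1 against 7.12 to 10.8 and 21.6 CPM of Cyp27b1 against 0.887 to 1.60. It also had 62.1 CPM of Cyp11a1 against 0.706 to 4.23, 93.7 CPM of Cyp11b1 against 0.385 to 8.40 and 25.9 CPM of Cyp21a1 against 0.449 to 1.30.

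UC-MSC library 4 had 1786 CPM of Cyp2e1 against 571 to 713 in the other 3, 204 CPM of Cyp7b1 against 20.3 to 45.7 and 82.7 CPM of Cyp27a1 against 20.6 to 25.9. IRI 6 h library 1 had 59.1 CPM of Cyp27b1 against 5.41 to 7.81, 17.6 CPM of Cyp2d26 against 54.4 to 57.6 and 0.901 CPM of Cyp11b1 against 0.146 to 0.172. IRI 24 h library 2 had 249.5 CPM of Cyp2e1 against 608 to 653. IRI 48 h library 1 had 182 CPM of Cyp4b1 against 72.6 to 88.7, and 1.25 CPM of Cyp26b1 against 0 in the other 3. Control library 1 of the temporal table had 55.3 CPM of Cyp1b1 against 47.4 to 48.5. Sham 24 h library 1 had 19.6 CPM of Cyp11a1 against 0 to 2.21 and 36.5 CPM of Cyp21a1 against 0 to 3.28. Sham control library 4 had 43.2 CPM of Cyp11a1 against 0.128 to 3.30 and 79.8 CPM of Cyp21a1 against 0.224 to 5.78.

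The change after IRI differed from that after sham surgery at 24 h for 17 of 49 members tested in edgeR's joint fit. Over all genes tested in this fit, 24.3% differed. The log2 difference was -4.10 for Cyp4a14, -2.73 for Cyp2d26, -2.66 for Cyp4a10, -2.15 for Cyp2j5, -1.54 for Cyp7b1, -1.46 for Cyp24a1, 1.10 for Cyp2s1 and 2.98 for Cyp27b1 among the 18 genes. Between the stromal cell groups, 6 of 43 members tested differed, and 20.5% of all genes did. The members' share was thus no higher than that over all genes. For UC-MSC over BM-MSC the log2 fold change was -1.23 for Cyp2j5, and in the adrenal genes 6.68 for Cyp11a1, 6.76 for Cyp11b1 and 6.91 for Cyp21a1. The Cyp2j5 call was lost with only the 2 groups fitted, at -1.24 (edgeR adjusted p = 0.0883).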

How the results depend on the processing

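Over 303 called values of single genes, no direction reversed under any alternative run, while 4317 recomputed values kept their call and 417 missed the threshold, 321 of them with one library left out. Counts of members called stayed within 1.5 times of the reported count in the fits of all libraries, except as follows. With only the groups compared in the fit, the counts were 29 at 6 h, 0 for 72 against 48 h, 25 for BM-MSC against Control, 11 for UC-MSC against AKI and 4 for UC-MSC against IRI 6 h. In the same order, these fits called 7443 of 15504, 24 of 14479, 4970 of 15654, 3535 of 15417 and 901 of 15524 genes. DESeq2 gave 14 for BM-MSC against Control and 1 for BM-MSC against IRI 6 h, with 2390 of 16623 and 211 of 16821 genes called. The cause was not tested. Total counts in place of TMM moved the members' median log2 fold change by at most 0.25, in BM-MSC against AKI. Leaving out the 14 names whose AKI counts repeat IRI 6 h, an alternative chosen after seeing the data, changed none of the 9 counts or 121 single values it bears on.

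With one library left out, the counts were 17 to 19 at 6 h, 21 to 24 at 24 h, 30 to 32 at 48 h, 28 to 34 at 72 h, 13 to 21 for 48 against 24 h and 5 to 7 for 72 against 48 h. They were 11 to 23 for AKI, 4 to 10 for BM-MSC and 19 to 30 for UC-MSC against Control, 8 to 18 for BM-MSC and 16 to 23 for UC-MSC against AKI, 4 to 9 for UC-MSC against BM-MSC, 14 to 18 for sham and 14 to 17 for IRI against sham. Against IRI 6 h they were 9 to 16 for AKI, 0 to 1 for BM-MSC and 4 to 11 for UC-MSC.

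Deviations of same-numbered libraries from their group means correlated between groups at -0.26 to 0.15 in the temporal and -0.12 to -0.01 in the sham table. In the therapy table the range was wider, -0.52 to 0.44, with AKI 3 and BM-MSC 3 at the top. Correlations were over 0.1 in 2 of 40 temporal, 6 of 24 therapy and 0 of 4 sham pairs. Pairs of AKI with IRI 6 h libraries, which share library names, were not examined this way. With the replicate block the counts were 18 at 6 h, 26 at 24 h, 31 at 48 h, 33 at 72 h, 15 for AKI, 8 for BM-MSC and 25 for UC-MSC against Control, 14 for sham and 17 for IRI against sham (by the numbers in the column names), and 283 single values kept their call while 20 missed the threshold. Late libraries are the shallowest, which limits what members under about 10 counts can show.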
